A study of Mus musculus with 27 samples.

Results

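The clustered protocadherins are a family of cell surface proteins encoded side by side in 3 gene clusters, alpha, beta and gamma. Members were found by symbol, as every gene named for one of these clusters, which gave 58 of the 48440 genes of the count table: 14 alpha, 22 beta and 22 gamma genes. The RNA came from cultured lung fibroblasts, primary cells of C57BL/6 mice with a wild-type genotype, grown in 3% O2. It was sequenced as 27 libraries in 9 groups of 3. Irradiated cells received 10 Gy of X-rays and were harvested 10 d later, as a positive control for senescence. Cells on KU60019 received 3 uM of this inhibitor of the DNA damage kinase ATM for 15 d or 35 d, and cells on DMSO received the solvent for the same times. For each of these 4 groups, a removal group had KU60019 or DMSO taken away and was harvested 20 d later. No mock-irradiated group was analysed here, so irradiated cells were set against cells on DMSO for 15 d. Library names end in the same 3 numbers in each group, as in S1_705, S2_715 and S3_716. The labels do not say whether these numbers stand for mice, so p-values measure the spread between these libraries, which may be technical.

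Alpha and gamma genes each begin with a variable exon of their own, which holds nearly all of the extracellular part and has its own promoter, and are spliced to exons that all genes of the cluster share. Beta genes consist of a single coding exon and have no shared part. Binding is homophilic, so that cells showing the same set of members recognise each other. In neurons each cell uses a few variable promoters, chosen through loops held by CTCF and cohesin and closed off by DNA methylation, and the resulting sets of proteins keep branches of one neuron apart. The C-type genes Pcdhac1, Pcdhac2, Pcdhgc3, Pcdhgc4 and Pcdhgc5 lie at the ends of the alpha and gamma clusters and are used more uniformly across cells. Pcdhgc3 is the member best known outside the nervous system.

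All 58 members lie on the plus strand of chromosome 18 (GRCm38 positions of GENCODE M21). The alpha cluster runs from 36930184 to 37187661, the beta cluster from 37264938 to 37524479 and the gamma cluster from 37661793 to 37841873. Slc25a2, a mitochondrial ornithine carrier, and Taf7, a subunit of the general transcription factor TFIID, lie on the minus strand between the beta and gamma clusters. The table gives the symbol Pcdha11 to 2 gene IDs, so the 58 members carry 57 symbols. Reads in shared exons were not credited to every gene: Pcdhgb8 had 3 counts over all libraries, against 36849 for Pcdhgc3, which ends in the same shared exons. The lengths behind the deposited TPM values include those exons, so TPM levels of alpha and gamma genes are too low beside beta genes, and ranks that cross clusters carry this limit. The sources used here do not say whether counting used the strand. Antisense genes cover parts of several members, among them Pcdhgc3, Pcdhb12, Pcdhga1, Pcdhga7, Pcdhga8, Pcdhga11, Pcdhga12 and Pcdhgb7. Pcdhb21 overlaps Pcdhb22. Pcdhga4 keeps only 1570 bases of exon that no other gene overlaps, against 2601 for Pcdhga3. The values of all these genes are uncertain. Pcdhga10, whose exons all overlap other genes when strand is ignored, and Pcdhb1 had 0 counts in every library.

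The libraries held 20659745 to 50859493 counts. In each library, the deviation of every gene from its mean over all libraries was set against gene length. The resulting Spearman rho lay between 0.26 and 0.37 in 7 DMSO libraries, in which long genes read high, and between -0.26 and 0.10 in the other 20. DMSO library S2_715 at 15 d had a rho of -0.12, against 0.36 and 0.34 in the other two of its group. DMSO library S13_705 at 35 d had 0.08, against 0.37 and 0.32 in its group. Fibroblast markers were present throughout: none of 12 was at 0 in any group, and their summed level was 12343 to 63516 CPM. Schwann cell markers summed to 13.9 to 136 CPM over all libraries and neuron markers to 0.88 to 24.9 CPM. Of 12 neuron markers, 3 (Rbfox3, Snap25 and Dcx) were at 0 in all 3 libraries of cells on DMSO for 15 d and for 35 d. The other markers had counts in both groups.

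The gamma cluster varied widely between groups. In the order of the library numbers, its summed level was 7.24, 6.28 and 11.4 TPM in irradiated cells, 14.1, 7.64 and 11.5 TPM in cells on KU60019 for 15 d, and 93.6, 10.4 and 81.7 TPM in cells on DMSO for 15 d. At 35 d it was 25.6, 12.2 and 8.81 TPM in cells on KU60019, against 27.1, 83.1 and 87.1 TPM in cells on DMSO. The low DMSO values, 10.4 and 27.1 TPM, belong to S2_715 and S13_705, so the 15 d groups overlapped and the 35 d groups nearly met. After removal at 15 d, the KU60019 libraries had 6.14, 7.12 and 3.39 TPM, against 73.8, 64.5 and 56.0 TPM in the DMSO libraries. Both groups were low after removal at 35 d, with 3.31, 6.20 and 3.13 TPM for KU60019 and 3.48, 2.58 and 3.61 TPM for DMSO. Across all groups, the 7 libraries with a long gene trend above 0.2 held 56.0 to 93.6 TPM of gamma RNA and the other 20 held 2.58 to 27.1 TPM. Gamma level and length trend thus moved together over the libraries, and the part of the trend in the gamma results was not tested beyond the fit with the trend removed.

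**Figure D1:**
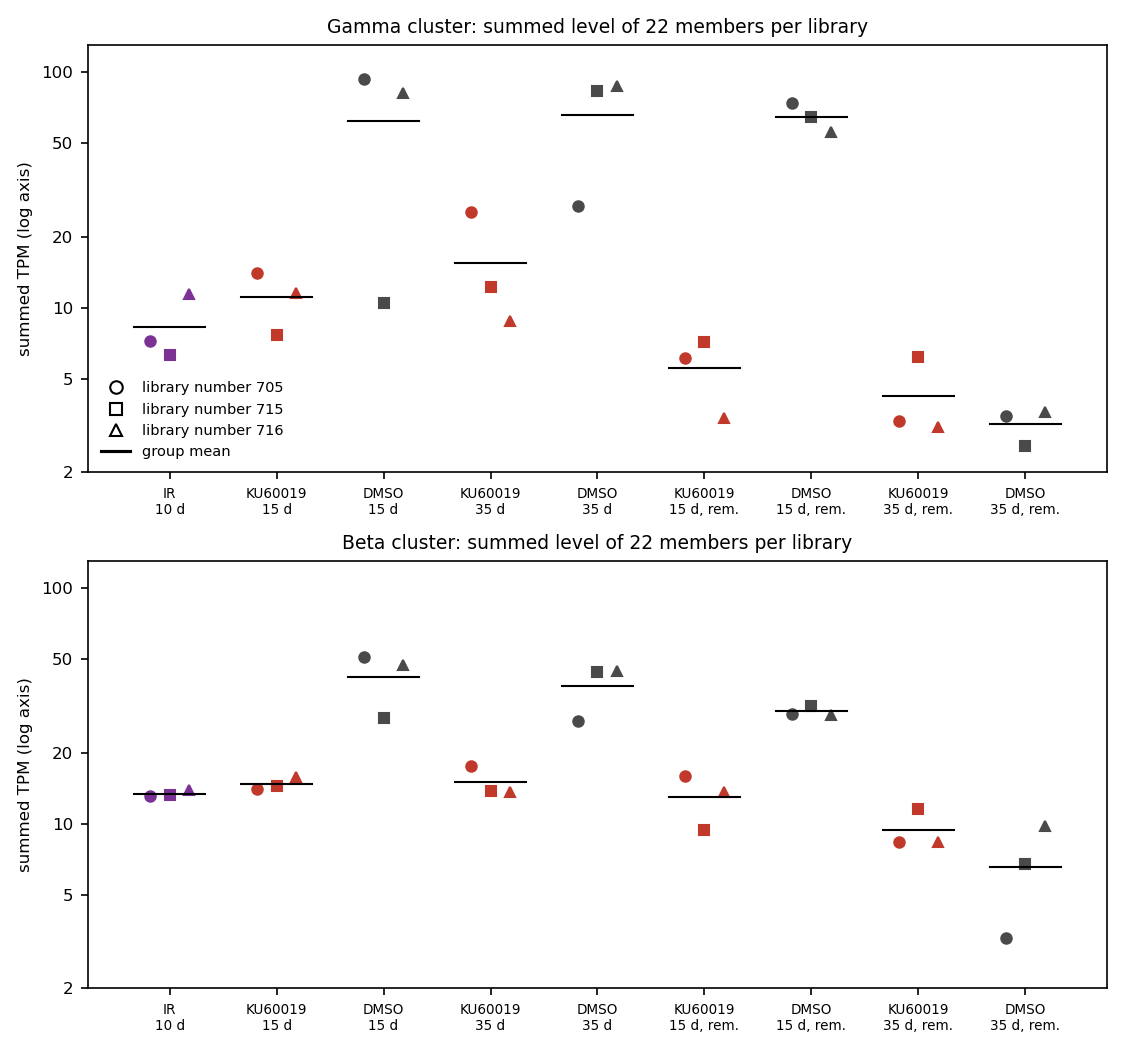
Summed TPM of the gamma (top) and beta (bottom) members in each library, on a log axis, by group, with the number of each library as its symbol and the group mean as a line. Gamma libraries on DMSO reach 93.6 TPM, with S2_715 at 10.4 TPM, S13_705 at 27.1 TPM and the 35 d removal group below the rest. Beta libraries on KU60019 lie below those on DMSO at 15 d, at 35 d and after removal at 15 d.

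Beta members summed to 13.1, 13.2 and 13.9 TPM in irradiated cells, 14.1, 14.4 and 15.9 TPM in cells on KU60019 for 15 d and 51.1, 28.1 and 47.0 TPM in cells on DMSO for 15 d. In cells on KU60019 for 35 d they summed to 17.5, 13.8 and 13.6 TPM, against 27.4, 43.9 and 44.6 TPM on DMSO. After removal at 15 d the values were 16.01, 9.40 and 13.6 TPM for KU60019, against 29.4, 31.8 and 29.0 TPM for DMSO. In each of these 4 comparisons, every treated library was below every DMSO library, S2_715 and S13_705 included. The removal groups at 35 d overlapped, with 8.35, 11.5 and 8.36 TPM for KU60019 and 3.26, 6.71 and 9.76 TPM for DMSO.

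**Figure D2:**
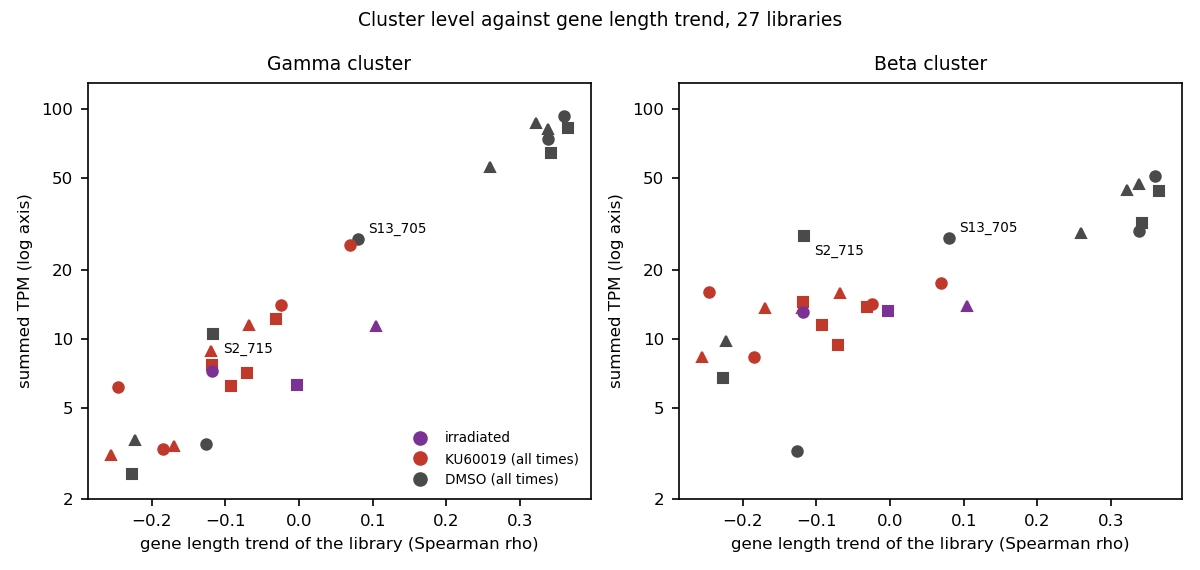
Summed gamma (left) and beta (right) TPM of each of the 27 libraries, on a log axis, against the Spearman rho of the library's gene deviations with gene length. In the gamma panel the 7 libraries above a rho of 0.2 lie at 56.0 TPM or more and S2_715 lies among the KU60019 libraries. In the beta panel S2_715 lies above them at 28.1 TPM.

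Alpha genes were at the edge of detection. Their summed level was at most 0.37 TPM in any library, in a DMSO library at 15 d, and 0 in 1 DMSO library of the 35 d removal group. No alpha gene had more than 12 counts in a library, and the highest total, 106 counts over all libraries, belonged to the C-type gene Pcdhac2. The other alpha C-type gene, Pcdhac1, had 2 counts in all. The 14 alpha genes, Pcdhb1, Pcdhb2, Pcdhb6, Pcdhga10 and Pcdhgb8 did not pass the filter on low counts, which left 39 members to test, 19 beta and 20 gamma. A member can pass that filter through the DMSO libraries alone, so counts among the 39 describe the tested genes and not the whole family. In bulk RNA, fewer cells expressing a member and less of its RNA in each cell cannot be told apart.

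Among expressed members, 1 gene dominated. Pcdhgc3, from 37806364 to 37841873 on chromosome 18, had the highest mean level over the libraries, 15.4 TPM, and ranged from 0.29 to 58.1 TPM. Per kilobase of exon that no other gene overlaps it averaged 20.2 CPM, against 2.09 CPM for Pcdhb17, the highest beta gene. That length ignores strand and is 1821 bases for Pcdhgc3, against 3380 bases when only the same strand counts. If counting used the strand, its value would be lower, while Pcdhb17 has 4660 bases either way. On the TPM scale Pcdhb17 averaged 3.74, Pcdhb22 2.62, Pcdhb9 2.08, Pcdhb16 1.77, Pcdhb20 1.66 and Pcdhb5 1.37. The second gamma gene was the C-type Pcdhgc5 with 1.32 TPM. All other members averaged under 1.2 TPM. Pcdhgc3 was the largest member in 19 libraries, Pcdhb17 in 5, Pcdhb22 in 2 and Pcdhgc4 in 1.

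The make-up of the gamma cluster differed between groups along with its level. Pcdhgc3 made up 41.0 ± 1.3% of gamma TPM in irradiated cells, 55.2 ± 2.9% in cells on KU60019 for 15 d and 59.9 ± 1.9% in cells on DMSO for 15 d (SD, n = 3 each). The low library S2_715 had a share of 59.0%, inside the range of its group. After removal at 15 d the share was 34.5 ± 10.2% for KU60019 and 59.2 ± 2.5% for DMSO. For removal at 35 d it was 22.2 ± 13.7% for KU60019 and 16.9 ± 8.3% for DMSO, so both groups held little Pcdhgc3. The number of members expressed evenly that would give the same diversity (the exponential of the Shannon entropy of TPM shares) was 24.1 ± 0.2 in irradiated cells, 20.9 ± 1.7 on KU60019 and 17.3 ± 2.8 on DMSO for 15 d. Pcdhgc3 enters both measures, its part in the second was not examined, and neither measure was tested.

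Along the beta cluster, the 11 genes nearest to the gamma cluster, Pcdhb12 to Pcdhb22, held most of the RNA in every group. They made up 81.6 ± 1.1% of beta TPM after KU60019 removal at 15 d and 78.4 ± 1.5% after DMSO removal at 15 d. Values were 66.2 ± 3.2% on KU60019 and 63.7 ± 2.0% on DMSO for 15 d. At 35 d the shares were 61.2 ± 1.3% on KU60019 and 74.1 ± 1.4% on DMSO, with no overlap. In the removal groups at 35 d they were 67.8 ± 2.6% for KU60019 and 82.3 ± 2.2% for DMSO, again with no overlap. The split at the middle of the cluster was chosen after the values were seen and carries no test.

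**Figure D3:**
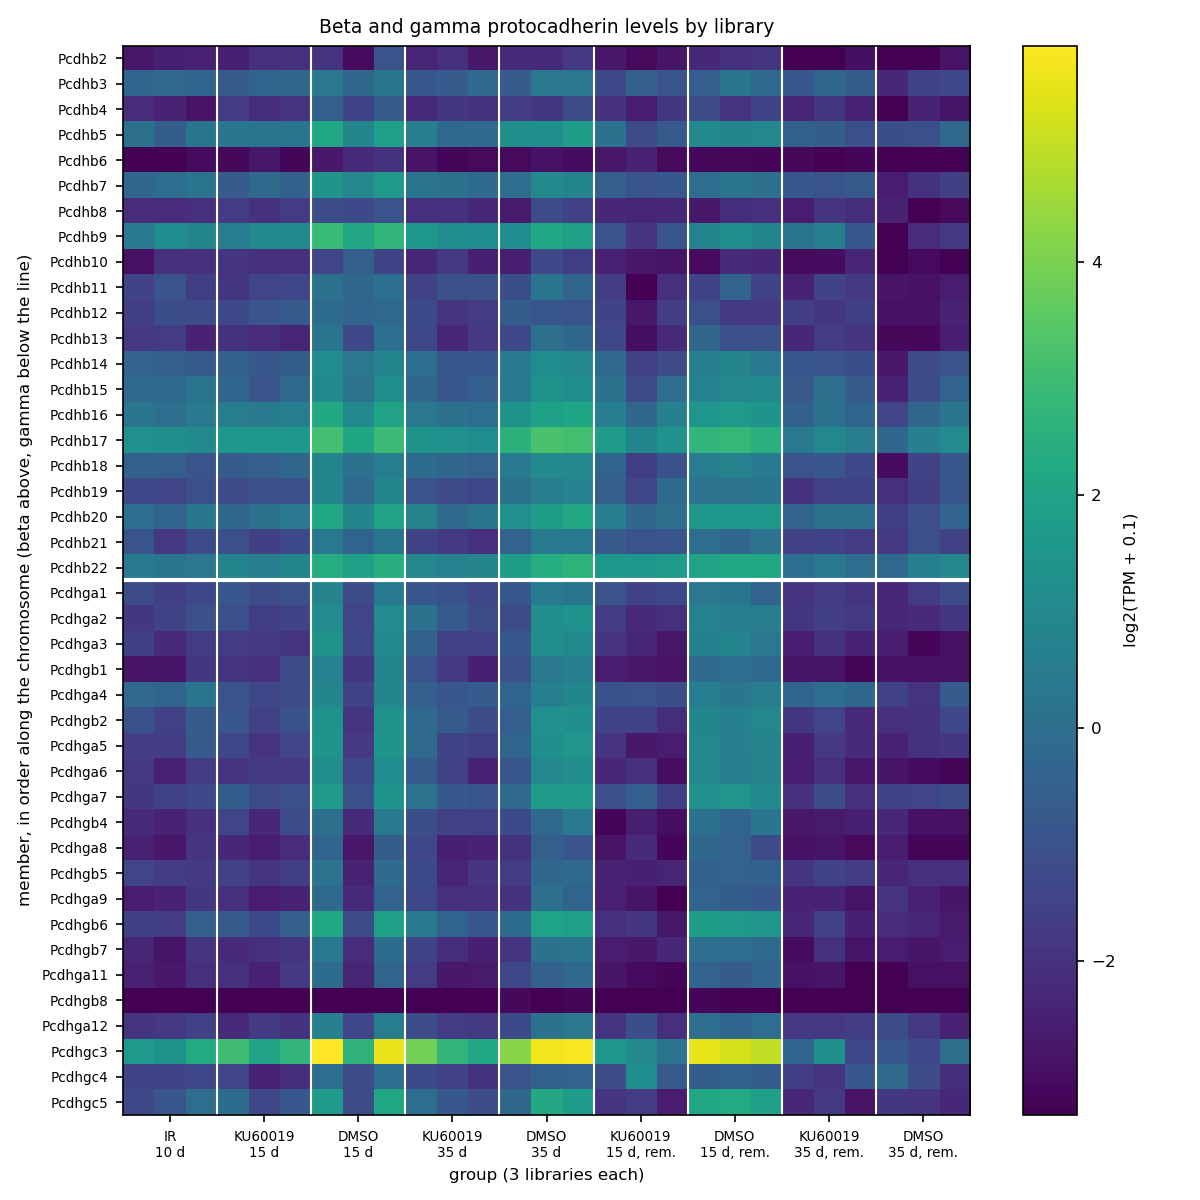
Level of each beta and gamma member with at least 1 count, as log2(TPM + 0.1), in the 27 libraries, with members in order along chromosome 18. Pcdhgc3 is the brightest row in DMSO libraries apart from those of the 35 d removal group. In S2_715, the middle library of the DMSO 15 d block, Pcdhgc3 is at 6.17 TPM, against 58.1 and 47.8 TPM in the other two, and Pcdhb9 at 4.57 TPM, against 7.18 and 6.55 TPM.

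Under KU60019 for 15 d, 30 of the 39 tested members fell relative to DMSO and none rose. Of all 18684 genes tested, 17.1% fell and 13.2% rose at an edgeR adjusted p under 0.05. The falls comprised 13 of 19 beta and 17 of 20 gamma members, with median log2 fold changes of -1.28 and -2.00 over the tested members of each cluster, against -0.02 over all genes. Every beta member tested was lower in all 3 KU60019 libraries than in all 3 DMSO libraries, but only 4 of the 20 gamma members were, against 22.8% of all genes. Pcdhgc3 had 23.3, 11.04 and 16.9 CPM on KU60019, against 126, 17.4 and 101 CPM on DMSO. The groups overlapped through S2_715, and the log2 fold change was -2.25 ± 0.62 (SE; edgeR adjusted p = 0.0082). Without DMSO library S1_705 the count was 16 and without KU60019 library S5_715 it was 17. Without S2_715 and S13_705 it was 34, of which 20 were gamma. With the gene length trend removed, 13 beta and 15 gamma members fell. For such alternative fits, here and below, the share of all genes called is not given, so their counts describe the calls only. Other cell types differed too: endothelial markers summed to 12.5 to 17.6 CPM on KU60019 and 41.0 to 138 CPM on DMSO, with 10 of 12 falling and none at 0. Of 9 macrophage markers tested 7 fell and 1 rose (24.5 to 35.9 CPM on KU60019, 33.7 to 68.4 CPM on DMSO), and of 12 fibroblast markers 5 fell and 2 rose. Their part in the result was not tested.

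Pcdhb22 showed the tightest separation at 15 d. It had 6.74, 5.54 and 6.59 CPM on KU60019 and 15.3, 14.9 and 15.7 CPM on DMSO, a log2 fold change of -1.28 ± 0.14 (edgeR adjusted p = 1.2e-06). Library S2_715, low for gamma genes, sat with its group. Pcdhb7 had 1.10, 1.65 and 1.24 CPM on KU60019 and 4.21, 3.83 and 4.62 CPM on DMSO (log2 fold change -1.66 ± 0.24, edgeR adjusted p = 1.8e-05). Pcdhb9 had 2.57, 3.46 and 3.42 CPM on KU60019 and 10.2, 8.42 and 8.98 CPM on DMSO (log2 fold change -1.54 ± 0.35, edgeR adjusted p = 0.0022). None of these 3 genes overlapped between groups. The largest falls by fold were gamma genes of the A type, Pcdhga3 (-2.77 ± 0.58), Pcdhga6 (-2.74 ± 0.63), Pcdhga5 (-2.55 ± 0.62) and Pcdhga12 (-2.44 ± 0.55). The beta gene Pcdhb13 followed (-2.32 ± 0.55), then Pcdhgc3 as above, Pcdhgb6 (-2.19 ± 0.62), Pcdhga9 (-2.12 ± 0.67), Pcdhgb1 (-2.08 ± 0.60) and Pcdhgb7 (-2.04 ± 0.62). Pcdhb3, chosen after its values were seen, was the member least below DMSO (-0.41, edgeR adjusted p = 0.32), with 1.16, 1.52 and 1.55 CPM on KU60019 and 2.08, 1.68 and 1.85 CPM on DMSO.

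Under KU60019 for 35 d, 17 tested members fell, 9 beta and 8 gamma, and none rose. Over all genes 8.4% fell and 9.7% rose. The median log2 fold change was -1.06 for the tested beta and -1.34 for the tested gamma members, against -0.01 over all genes. All KU60019 libraries were below all DMSO libraries for 11 of the 19 beta and 4 of the 20 gamma members tested, against 23.5% of all genes. Pcdhb21 had the largest fall (-2.00 ± 0.30), with 0.79, 0.58 and 0.42 CPM on KU60019, against 1.71, 2.73 and 2.92 CPM on DMSO. Pcdhb17 had 7.41, 7.11 and 6.504 CPM on KU60019, against 15.4, 19.7 and 18.5 CPM on DMSO (-1.35 ± 0.19, edgeR adjusted p = 2.9e-05). Pcdhb22 had 7.34, 6.55 and 7.49 CPM on KU60019, against 12.9, 15.4 and 19.05 CPM on DMSO (-1.15 ± 0.14, edgeR adjusted p = 9.1e-06). All 3 genes were lower in every KU60019 library than in every DMSO library. Pcdhb19 (-1.59 ± 0.29), Pcdhb15 (-1.40 ± 0.37), Pcdhb16 (-1.40 ± 0.26), Pcdhb20 (-1.14 ± 0.29), Pcdhb14 (-1.12 ± 0.36) and Pcdhb5 (-1.06 ± 0.33) made up the rest of the beta falls.

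Pcdhgc3 had 42.5, 19.4 and 13.4 CPM on KU60019 for 35 d and 49.0, 109 and 120 CPM on DMSO. The highest KU60019 and the lowest DMSO library nearly met, and the log2 fold change was -1.88 ± 0.61 (edgeR adjusted p = 0.035). Pcdhga11 (-1.94 ± 0.61), Pcdhga6 (-1.93 ± 0.61), Pcdhgc5 (-1.90 ± 0.64), Pcdhgb7 (-1.76 ± 0.61), Pcdhga5 (-1.69 ± 0.59), Pcdhga3 (-1.63 ± 0.55) and Pcdhga7 (-1.47 ± 0.51) also fell. These gamma calls were fragile. The total was 5 without KU60019 library S17_715, 7 without KU60019 library S18_716, 7 without DMSO library S14_715 and 6 without DMSO library S15_716. It was 28, 10 beta and 18 gamma, without S2_715 and S13_705, and 11, 8 beta and 3 gamma, with the gene length trend removed. The shares of all genes called in these fits are not given here. At 35 d the KU60019 libraries also had higher Schwann cell markers, 29.3 to 136 CPM in sum against 13.9 to 15.2 CPM on DMSO. Of 11 such markers tested 9 rose, and of 5 neuron markers tested 4 rose. Of 12 fibroblast markers 6 fell and 2 rose, with 19758 to 21216 CPM in sum on KU60019 and 43049 to 52858 CPM on DMSO. The part of these shifts in the result was not tested.

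**Figure D4:**
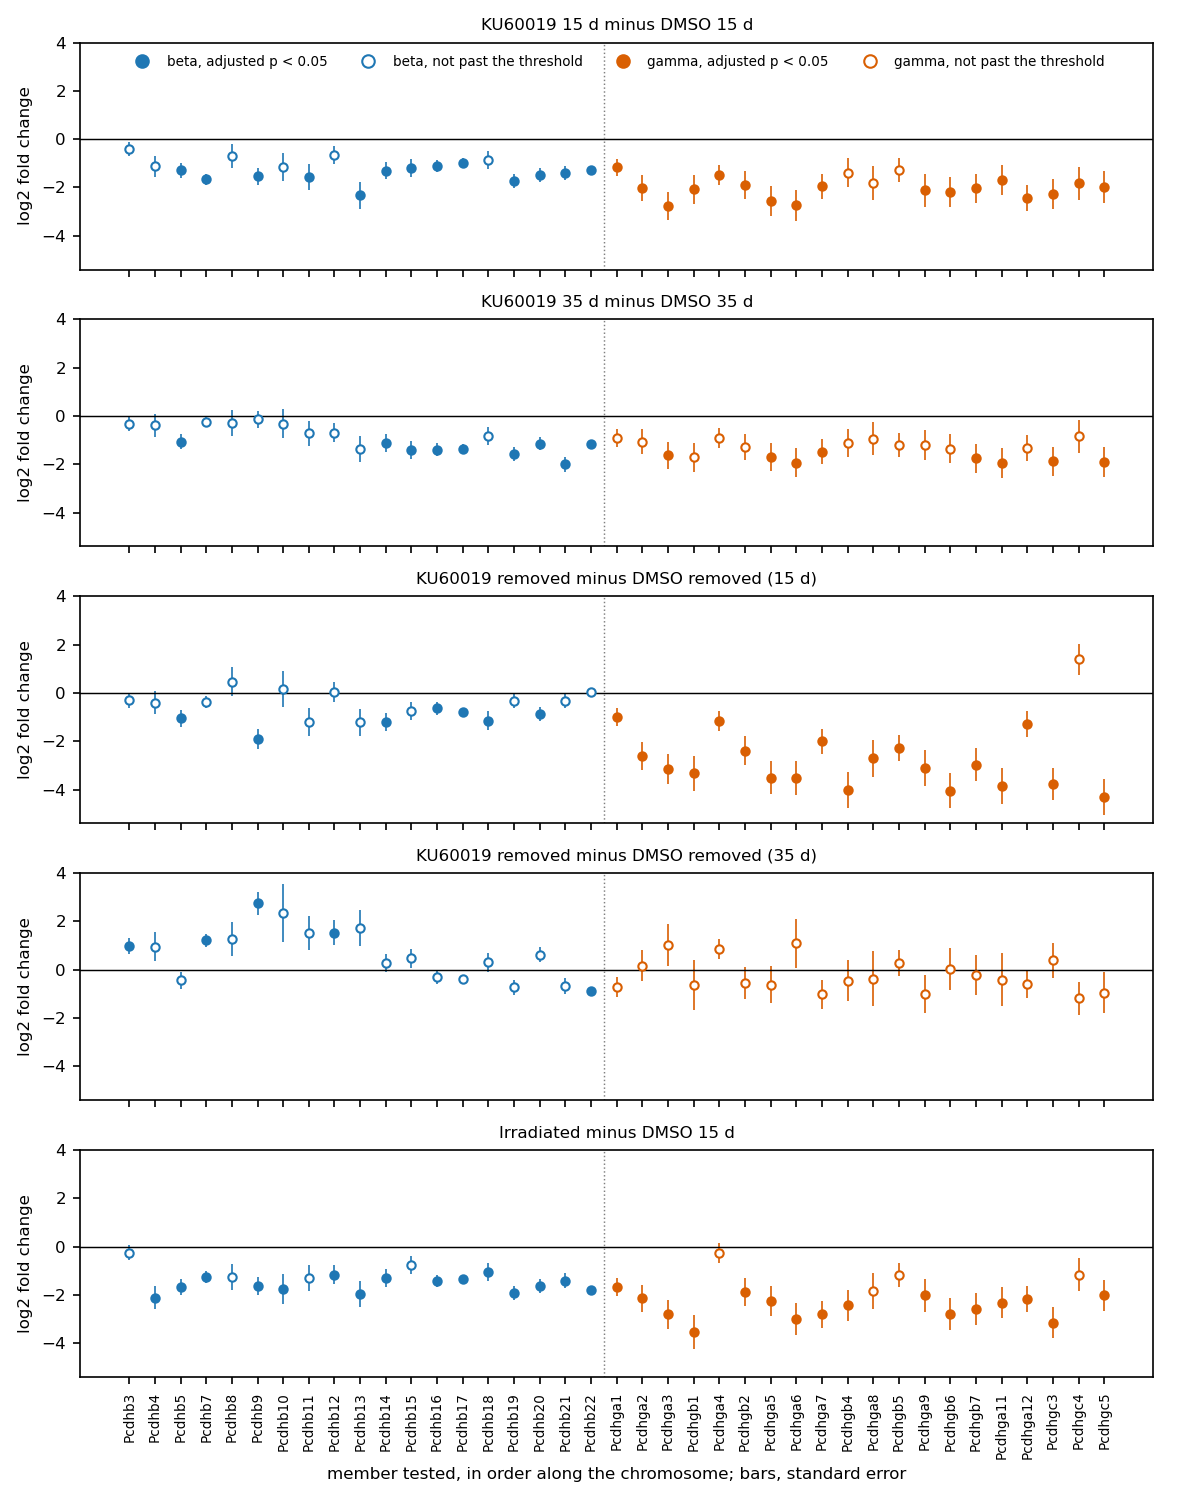
Log2 fold change of each of the 39 tested members, with its standard error, in order along the chromosome, for 5 comparisons (filled points, edgeR adjusted p under 0.05). Beta and gamma points lie below 0 at 15 d, at 35 d and in irradiated cells, gamma points lie lowest after removal at 15 d, and only 5 points are filled after removal at 35 d.

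Pcdhb7 was the member whose KU60019 effect differed between the 2 treatment times. At 35 d it had 2.36, 2.15 and 1.92 CPM on KU60019 and 1.71, 3.14 and 2.75 CPM on DMSO, groups that overlapped (log2 fold change -0.24, edgeR adjusted p = 0.50). The difference between the 35 d and the 15 d effect was 1.42 ± 0.33 on the log2 scale (edgeR adjusted p = 0.0061). Over all genes 7.11% had such a positive difference and 4.58% a negative one. No other tested member passed this test. Pcdhb9 also fell at 15 d but overlapped at 35 d, with 5.34, 4.21 and 4.26 CPM on KU60019 and 3.65, 6.25 and 5.26 CPM on DMSO. Between cells on KU60019 for 35 d and for 15 d, Pcdhb7 was the only member called (0.69 ± 0.24, edgeR adjusted p = 0.036; background 13.6% higher and 11.6% lower). That call was lost without S4_705 or S6_716 of the 15 d group or S16_705 or S17_715 of the 35 d group. Between cells on DMSO for 35 d and for 15 d no member was called, against 0.455% of genes higher and 1.11% lower. At an unadjusted p under 0.05 there were 2 beta members, and DESeq2 called 1 member lower.

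Removal of KU60019 after 15 d left the gamma cluster low. In cells harvested 20 d after removal, 26 tested members were lower than in the matching DMSO cells, 7 beta and 19 gamma, and none was higher. Over all genes 24% were lower and 24.7% higher. The median log2 fold change was -3.04 for the tested gamma and -0.64 for the tested beta members, against -0.01 for all genes. All 19 gamma members called were lower in every KU60019 library than in every DMSO library, which held for 30.3% of all genes. Pcdhgc5 had 0.68, 0.94 and 0.28 CPM after KU60019, against 13.6, 13.9 and 10.9 CPM after DMSO (log2 fold change -4.30 ± 0.74, edgeR adjusted p = 2.3e-04). Pcdhgc3 had 9.40, 7.18 and 3.73 CPM after KU60019 and 113, 88.8 and 76.4 CPM after DMSO (-3.76 ± 0.67, edgeR adjusted p = 2.8e-04). Neither gene came near to overlap. Other large falls were Pcdhgb6 (-4.04 ± 0.72), Pcdhgb4 (-4.02 ± 0.75), Pcdhga11 (-3.87 ± 0.74), Pcdhga6 (-3.53 ± 0.69), Pcdhga5 (-3.51 ± 0.69) and Pcdhgb1 (-3.33 ± 0.71).

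The gamma C-type gene Pcdhgc4, needed in mice for the survival of interneurons, did not follow its cluster. It had 1.24, 8.54 and 1.91 CPM after KU60019 removal at 15 d, against 1.48, 1.55 and 1.42 CPM after DMSO removal (log2 fold change 1.39, edgeR adjusted p = 0.082). The high value belongs to library S11_715. That library also had the most RNA of the neuronal growth marker Gap43 in its group, 13.6 CPM, against 1.34 and 5.98 CPM in the other two. Of 12 neuron markers, 3 (Rbfox3, Snap25 and Dcx) were at 0 in all 3 libraries of this group and the others had counts. Together the 12 summed to 3.13 to 24.9 CPM. The link to Gap43 was seen after the fact, and its part was not tested. Against cells on KU60019 for 15 d, harvested 20 d earlier and with 0.85, 0.27 and 0.38 CPM, Pcdhgc4 was higher after removal (2.99 ± 0.70, edgeR adjusted p = 0.0022) in every library. The change of its KU60019 effect on removal was 3.22 ± 0.95 (edgeR adjusted p = 0.017). Without S11_715 both calls were lost: Pcdhgc4 was 1.68 higher after removal (edgeR adjusted p = 0.055), and the change of its effect was 1.91 (edgeR adjusted p = 0.12). After DMSO removal at 35 d, 1 library again stood out, with 4.96, 1.41 and 0.47 CPM, against 1.23, 1.45 and 1.56 CPM before removal. Within the gamma cluster, Pcdhgc4 had the lowest median correlation with the other tested members over the 27 libraries, 0.40 on the log2(TPM + 0.1) scale.

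**Figure D5:**
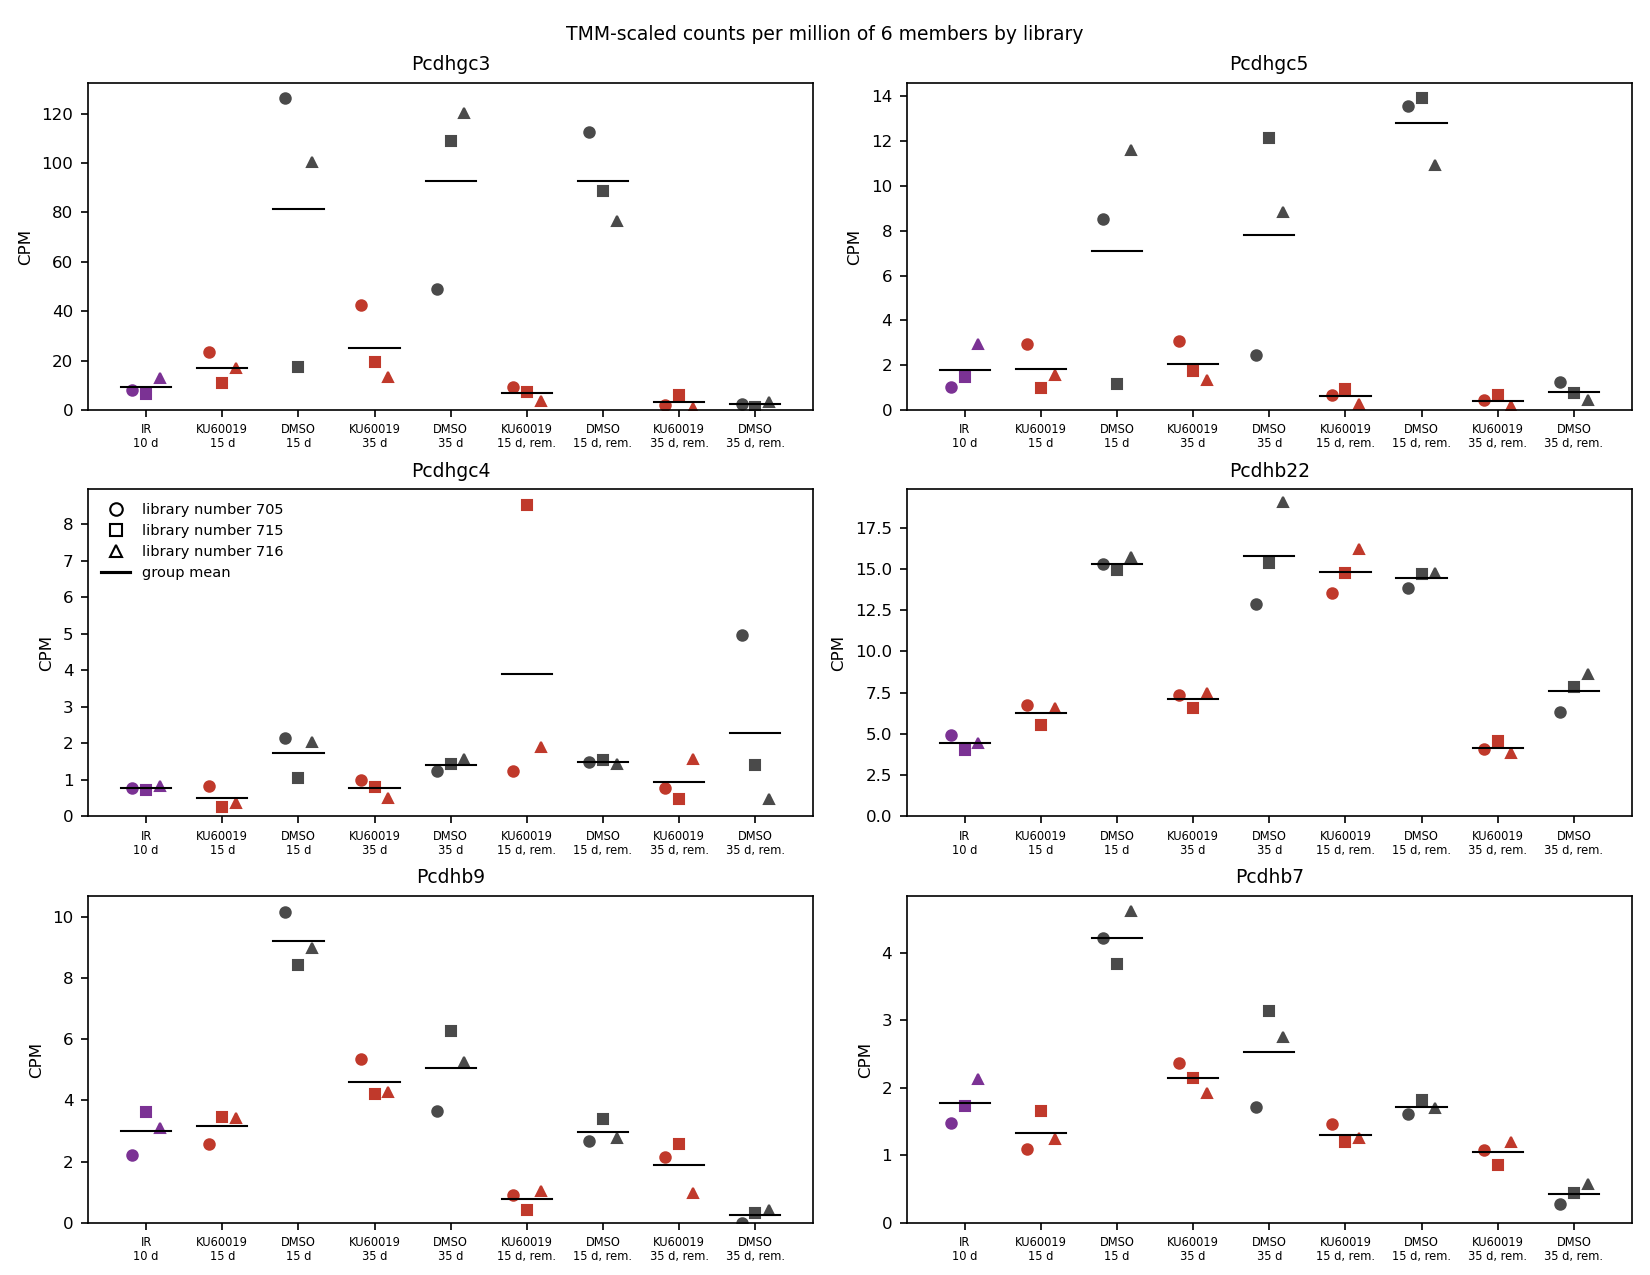
TMM-scaled CPM of 6 members in each library by group, with the library number as the symbol and the group mean as a line. Pcdhgc3 and Pcdhgc5 are low in KU60019 and irradiated groups, Pcdhgc4 has 1 high library in each of 2 removal groups, and Pcdhb22 after KU60019 removal at 15 d lies at the level of its DMSO group.

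The beta gene Pcdhb22 had 13.5, 14.7 and 16.2 CPM after KU60019 removal at 15 d and 13.8, 14.7 and 14.7 CPM after DMSO removal, groups that overlapped (log2 fold change 0.04, edgeR adjusted p = 0.83). It was higher than in cells on KU60019 for 15 d (1.24 ± 0.14, edgeR adjusted p = 1.3e-06), which were harvested 20 d earlier. The change of the KU60019 effect on removal was 1.32 ± 0.20 (edgeR adjusted p = 8.3e-05). Pcdhb19 (1.38 ± 0.40) and Pcdhb7 (1.28 ± 0.34) changed the same way by that test, Pcdhgb4 the opposite way (-2.64 ± 0.97), and 14% of all genes had a positive and 11.4% a negative change. For Pcdhb7 the KU60019 level differed little, 1.47, 1.19 and 1.26 CPM after removal against 1.10, 1.65 and 1.24 CPM on KU60019. Its DMSO level was lower after removal, with 1.61, 1.82 and 1.69 CPM against 4.21, 3.83 and 4.62 CPM before. The beta members still lower than DMSO after removal were Pcdhb9 (-1.91 ± 0.40), Pcdhb14 (-1.20 ± 0.36), Pcdhb18 (-1.14 ± 0.38), Pcdhb5 (-1.06 ± 0.34), Pcdhb20 (-0.88 ± 0.29), Pcdhb17 (-0.80 ± 0.18) and Pcdhb16 (-0.64 ± 0.26). With the gene length trend removed, 4 beta and 16 gamma members were lower and 1 of each cluster was higher. Schwann cell markers were higher in 6 of 11 (19.2 to 81.5 CPM in sum after KU60019, 17.6 to 18.5 CPM after DMSO) and neuron markers in 4 of 5 tested. Fibroblast markers were lower in 8 of 12 and higher in 1 (24081 to 31460 CPM after KU60019, 55705 to 63516 CPM after DMSO) and pericyte markers lower in 4 of 6 tested and higher in 1 (44.6 to 72.3 CPM after KU60019, 118 to 141 CPM after DMSO). The part of these markers' cells was not tested.

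Between KU60019 removal after 15 d and KU60019 for 15 d, 4 members were higher and 2 lower, against 21.3% and 19% of all genes. In this and every comparison of a removal group with its group before removal, the removal cells were harvested 20 d later. Removal and added culture time cannot be told apart there. Pcdhgc4, Pcdhb22, Pcdhb19 (1.00 ± 0.29) and Pcdhb21 (0.95 ± 0.30) were higher. Pcdhgb4 (-2.25 ± 0.78) and Pcdhb9 (-2.01 ± 0.40) were lower. The split moved with the fit: with library size alone 2 were higher and 5 lower, and with only the compared groups in the fit 3 were higher and 4 lower. For DMSO removal at 15 d against DMSO for 15 d, Pcdhb10 (-2.23 ± 0.62), Pcdhb9 (-1.64 ± 0.35), Pcdhb12 (-1.58 ± 0.39) and Pcdhb7 (-1.30 ± 0.23) were lower and no member was higher, against 3.24% and 3.78% of all genes. Without removal library S8_715 or S9_716 the count was 2. In the same comparison 10 of 12 endothelial, 6 of 9 macrophage and 5 of 11 Schwann cell markers tested were lower, 1 Schwann cell marker and 3 of 12 fibroblast markers were higher, and their part was not tested.

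After removal at 35 d the contrast with DMSO was mostly gone. There 4 beta members were higher and 1 lower after KU60019 than after DMSO, and no gamma member was called, against 24.4% of all genes higher and 24.5% lower. The medians were 0.63 for tested beta and -0.42 for tested gamma members, against 0.00 over all genes. The groups did not overlap for 6 beta and 1 gamma members that were higher and 3 beta and 2 gamma members that were lower, against 26.1% and 23.5% of all genes. Pcdhb9 had 2.16, 2.56 and 0.96 CPM after KU60019 and 0, 0.31 and 0.43 CPM after DMSO (log2 fold change 2.75 ± 0.48, edgeR adjusted p = 6.0e-05). Pcdhb7 had 1.08, 0.85 and 1.20 CPM after KU60019 and 0.28, 0.44 and 0.58 CPM after DMSO (1.22 ± 0.28, edgeR adjusted p = 0.0011). Neither overlapped between groups. Pcdhb12 (1.54 ± 0.51) and Pcdhb3 (0.97 ± 0.33) were also higher, and Pcdhb22 was lower (-0.88 ± 0.15), with 4.09, 4.58 and 3.82 CPM after KU60019 against 6.35, 7.85 and 8.61 CPM after DMSO. Pcdhb3, Pcdhb7 and Pcdhb9 lie on the side of the beta cluster away from gamma, and Pcdhb12 and Pcdhb22 on the side nearer to it. Without DMSO removal library S21_716 the total was 10, with 7 higher and 3 lower. With the gene length trend removed 4 beta members were higher and 4 lower. All 10 proliferation markers were lower after KU60019, with 52.1 to 65.0 CPM in sum against 1233 to 1711 CPM after DMSO, and their part was not tested.

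The DMSO libraries themselves were low after removal at 35 d. In DMSO removal cells at 35 d, 37 of 39 tested members were lower than in cells on DMSO for 35 d, all 19 beta and 18 gamma, against 32.6% of all genes lower and 31.5% higher. Pcdhgc3 had 2.58, 1.10 and 3.22 CPM after removal and 49.0, 109 and 120 CPM before (log2 fold change -5.33 ± 0.74, edgeR adjusted p = 3.2e-06). Every removal library was below every library before removal, as for 18 beta and 16 gamma members in all and 33.1% of all genes. Pcdhga6 (-4.85 ± 0.83), Pcdhga3 (-4.55 ± 0.73), Pcdhb9 (-4.18 ± 0.46), Pcdhgb6 (-4.03 ± 0.75), Pcdhgb1 (-3.93 ± 0.77), Pcdhb10 (-3.85 ± 1.03), Pcdhga11 (-3.75 ± 0.79), Pcdhb13 (-3.42 ± 0.68) and Pcdhgc5 (-3.34 ± 0.73) were the next largest. Pcdhga12 and Pcdhgc4 were not called. The same group differed widely in other respects. Its 10 proliferation markers summed to 1233 to 1711 CPM, against 102 to 145 CPM before removal, and all 10 rose. Of 12 fibroblast markers 9 were lower and 3 higher (15461 to 18903 CPM, against 43049 to 52858 CPM). Its 7 epithelial markers summed to 24.3 to 71.6 CPM, against 1.39 to 1.94 CPM. Of these markers, Krt8 and Nkx2-1 were at 0 in all its libraries, and Cdh1 in all libraries before removal. The length rho was -0.23 to -0.13 after removal and 0.08 to 0.37 before. With the trend removed 33 members were lower, and the part of the other differences was not tested.

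For KU60019 at 35 d, 8 members were lower after removal than in cells on KU60019 for 35 d and none was higher, against 6.82% and 5.77% of all genes. They were Pcdhgc3 (-3.07 ± 0.67), Pcdhgb1 (-2.86 ± 0.81), Pcdhgb6 (-2.63 ± 0.71), Pcdhgc5 (-2.39 ± 0.76), Pcdhb9 (-1.30 ± 0.37), Pcdhb7 (-1.03 ± 0.24), Pcdhb22 (-0.78 ± 0.15) and Pcdhb17 (-0.71 ± 0.19). Pcdhgc3 had 2.12, 6.17 and 0.94 CPM after removal, all below the 42.5, 19.4 and 13.4 CPM of cells on KU60019 for 35 d. The removal cells were again harvested 20 d later, so removal and added culture time cannot be told apart. The count was 2 without KU60019 library S16_705, 5 without S17_715, and 3 without removal library S22_705 or S24_716. The change of the KU60019 effect on removal at 35 d was positive for 14 members, 11 beta and 3 gamma, and negative for none, against 15.8% and 16.6% of all genes. Both the level on KU60019 before removal and the DMSO level after it enter this difference. Largest were Pcdhb13 (3.07 ± 0.91), Pcdhga6 (3.03 ± 1.16), Pcdhb9 (2.88 ± 0.59), Pcdhga3 (2.65 ± 1.01) and Pcdhb12 (2.23 ± 0.64). The count was 8 without DMSO library S14_715 and 7 without DMSO library S15_716. It was 7 without KU60019 library S17_715, 9 without S18_716 and 9 without KU60019 removal library S23_715.

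Irradiated cells showed the family low as well. Relative to DMSO for 15 d, 31 tested members fell, 15 beta and 16 gamma, and none rose, against 16.8% and 14.1% of all genes. The medians were -1.40 for tested beta and -2.20 for tested gamma members, against -0.01 over all genes. All but 1 of the 19 tested beta members and 8 of the 20 gamma members were lower in every irradiated library than in every DMSO library, against 21.8% of all genes. Pcdhgc3 had 8.26, 6.46 and 13 CPM in irradiated cells, against 126, 17.4 and 101 CPM on DMSO (log2 fold change -3.15 ± 0.65, edgeR adjusted p = 8.1e-04). Pcdhb22 had 4.91, 4.03 and 4.44 CPM in irradiated cells, against 15.3, 14.9 and 15.7 CPM (-1.78 ± 0.15, edgeR adjusted p = 2.1e-08). Both were below S2_715 in each irradiated library. Pcdhgb1 (-3.53 ± 0.69), Pcdhga6 (-3.00 ± 0.66), Pcdhga3 (-2.80 ± 0.59), Pcdhga7 (-2.79 ± 0.56), Pcdhgb6 (-2.78 ± 0.66), Pcdhgb7 (-2.58 ± 0.66) and Pcdhgb4 (-2.43 ± 0.65) followed. Pcdhb3 (-0.24, edgeR adjusted p = 0.57) and Pcdhga4 (-0.26, edgeR adjusted p = 0.65) were the members least below DMSO, named after their values were seen, and Pcdhga4 made up 10.3% of gamma TPM in irradiated cells against 2.1% on DMSO. With the gene length trend removed, 14 beta and 16 gamma members fell. Of 12 fibroblast markers 6 fell and 1 rose in irradiated cells (18841 to 24885 CPM, against 35125 to 52203 CPM). Of the 10 proliferation markers all fell in irradiated cells (34.0 to 41.3 CPM in sum, against 147 to 234 CPM), while under KU60019 for 15 d 1 of 10 fell. Endothelial markers summed to 20.4 to 25.2 CPM in irradiated cells and 41.0 to 138 CPM on DMSO for 15 d. The part of these cells was not tested. With DMSO for 35 d as the control instead, 26 of the 31 calls held, 10 beta and 16 gamma, and 5 fell short of the threshold. The share of all genes with that control is not given here.

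Of 12 neighbours on both sides and between the clusters, 1 rose and none fell under KU60019 for 15 d, under KU60019 for 35 d and in irradiated cells. Over all genes 13.2%, 9.7% and 14.1% rose and 17.1%, 8.4% and 16.8% fell in these 3 comparisons. Slc25a2, between the beta and gamma clusters, had 0.64, 0.53 and 0.58 CPM in irradiated cells and 0.12, 0.14 and 0.07 CPM on DMSO for 15 d (log2 fold change 2.42, edgeR adjusted p = 8.9e-04). Taf7 beside it had 6.41, 6.51 and 6.21 CPM in irradiated cells and 5.89, 4.26 and 5.23 CPM on DMSO for 15 d and was not called. In DMSO removal cells at 35 d, Slc25a2 (-2.90), Rell2 (-2.72) and Taf7 (-1.61) were among 5 neighbours lower than on DMSO for 35 d, and 4 were higher. Over all genes 32.6% were lower and 31.5% higher. After removal at 35 d, KU60019 cells had 5 neighbours higher and 3 lower than DMSO cells, led by Slc25a2 (4.01), against 24.4% and 24.5% of all genes. After removal at 15 d 2 were higher and 2 lower, against 24.7% and 24% of all genes.

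Of 16 tested genes for cohesin, CTCF and other loop factors, 5 fell and none rose under KU60019 for 15 d, with a median of -0.36, against 17.1% of all genes falling and an all-gene median of -0.02. The largest were Nipbl (-0.84), which loads cohesin, its partner Mau2 (-0.63) and Ctcf (-0.46). Under KU60019 for 35 d the 3 that fell were the cohesin subunits Stag1 (-0.76) and Smc1a (-0.55) and Ctcf (-0.53). At that time 8.4% of all genes fell. After removal at 15 d 7 were lower, against 24% of all genes, and in irradiated cells 9 fell, against 16.8%, with none higher in either. After removal at 35 d, where no gamma member was called, 10 were lower and 2 higher, against 24.5% and 24.4% of all genes. Between KU60019 at 35 d and at 15 d 1 was higher and 1 lower, against 13.6% and 11.6% of all genes. In irradiated cells the largest were Esco2 (-4.22), the cohesin acetyltransferase of S phase, Smc1a (-1.19) and Stag1 (-0.95). Of 20 repressors and enzymes of DNA methylation, 8 fell under KU60019 for 15 d, against 17.1% of all genes. Among them were the demethylase Tet1 (-1.63) and the methyltransferase Dnmt3a (-1.08). At 35 d 7 fell, against 8.4% of all genes. After removal at 15 d 11 were lower and 1 higher than after DMSO removal, against 24% and 24.7% of all genes. After removal at 35 d 6 were lower and 3 higher than after DMSO removal, against 24.5% and 24.4% of all genes. After KU60019 removal at 15 d, 6 were higher and 3 lower than in cells on KU60019 for 15 d, against 21.3% and 19% of all genes. In irradiated cells 3 of 20 fell, a share near the background of 16.8%, led by Uhrf1 (-2.45) and Dnmt1 (-1.15), which copy methylation at replication.

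Of 20 signalling partners, 3 rose and 3 fell under KU60019 for 15 d, against 13.2% and 17.1% of all genes. At 35 d 2 rose and 6 fell, against 9.7% and 8.4% of all genes. After removal at 15 d 3 were higher and 6 lower, against 24.7% and 24%. After removal at 35 d 4 were higher and 9 lower, against 24.4% and 24.5%. In irradiated cells 5 rose and 6 fell, against 14.1% and 16.8%. Cyfip2, a subunit of the actin-regulating WAVE complex that protocadherins bind, was higher at 15 d (1.08), at 35 d (3.37), after removal at 15 d (1.06), after removal at 35 d (2.38) and in irradiated cells (1.47). Non-clustered protocadherins, which lie elsewhere and are single genes, did not fall together under KU60019: at 15 d 1 of 10 tested rose and 3 fell, led by the endothelial Pcdh12 (-4.25), and at 35 d Pcdh20 (4.98) rose and Pcdh18 (-1.39) fell. In irradiated cells 8 of 10 fell and none rose, with Pcdh10 (-3.01), Pcdh17 (-2.93) and Pcdh12 (-2.92) the largest. In DMSO removal cells at 35 d 7 were lower and 2 higher than on DMSO for 35 d, against 32.6% and 31.5% of all genes. Under KU60019 for 15 d, 1 of 6 tested FAT, Dachsous and Celsr cadherins fell, and of 12 tested classical cadherins 1 rose and 4 fell. The shares of all genes at 15 d are those given above. All values in parentheses here are log2 fold changes of genes past an edgeR adjusted p of 0.05.

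Members of a cluster varied together over the 27 libraries. The median pairwise correlation of log2(TPM + 0.1) was 0.93 among the tested gamma members, 0.79 among beta members and 0.75 between clusters. Within groups, on deviations from group means, it was 0.85 among gamma, 0.51 among beta and 0.44 between clusters. These are descriptions: members of a library share its depth, scaling and length trend.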

How the data were processed

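Gene counts and TPM values were deposited by the authors as a table each, with 1 column per library, over 48440 genes for counts and 48082 for TPM; a TPM table of expressed genes only was not used. The submitters' processing notes name featureCounts and mm10; no source used here gives the aligner, annotation or strand setting. TPM was used as deposited. Counts were fitted with edgeR 4.0.16 (quasi-likelihood test, TMM scaling, robust, minimum count 10 in filterByExpr) in R 4.3.3, as 1 model of 9 group means over 27 libraries and 18684 genes. Calls took a Benjamini-Hochberg adjusted p under 0.05 over all genes, and CPM stands for counts scaled by the TMM library size. Standard errors are the size of the log2 fold change over the square root of its F statistic. DESeq2 1.42.0, limma 3.58.1 on log2(TPM + 1) and log2(TPM + 0.1), library size alone, no filter, a fit with a gene length trend removed, only the compared groups, a replicate block and leaving out each library were alternatives. Leaving out S2_715 and S13_705 together was chosen after seeing the data. The fit was tested on simulated data.

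Members and lists were chosen with earlier results of these data known. The text names the 8 members with the highest mean TPM, the C-type members and up to 10 members called in each direction per comparison by size, plus at most 3 called genes per companion list; others are said to be chosen after their values were seen. Same-numbered libraries deviated together in every pair, at a correlation of 0.30 to 0.45, between KU60019 and DMSO at 15 d and, at 0.14 to 0.36, between KU60019 removal and KU60019 at 35 d. In the other comparisons at least 1 pair was at 0.06 or below. Depth ran from 20659745 to 50859493 counts. Intervals on low counts were not used, since replicates vary beyond counting error.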

Additional observations from a re-analysis of the deposited data

Results flagged for a closer look

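The KU60019 effect differed between settings for 20 members and settings by an edgeR test of the difference of the 2 log2 fold changes, adjusted over all genes; a positive value means that KU60019 cells stood higher relative to DMSO in the setting named first. Between 35 d and 15 d of treatment, Pcdhb7 differed by 1.42.

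Between removal at 15 d and treatment for 15 d, Pcdhgc4 differed by 3.22, Pcdhb19 by 1.38, Pcdhb22 by 1.32, Pcdhb7 by 1.28 and Pcdhgb4 by -2.64. For Pcdhgc4 the call was lost without S11_715, the removal library at 8.54 CPM. For Pcdhgb4 it was lost under 15 alternatives.

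Between removal at 35 d and treatment for 35 d, all 14 differences past the threshold were positive. Among beta members they were 3.07 for Pcdhb13, 2.88 for Pcdhb9, 2.23 for Pcdhb12, 1.87 for Pcdhb15, 1.77 for Pcdhb20, 1.46 for Pcdhb7, 1.40 for Pcdhb14, 1.32 for Pcdhb21, 1.28 for Pcdhb3, 1.10 for Pcdhb16 and 0.95 for Pcdhb17. Among gamma members they were 3.03 for Pcdhga6, 2.65 for Pcdhga3 and 1.77 for Pcdhga4. The count was 9 with the gene length trend removed.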

How the results depend on the processing

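Of 185 calls on single members, none changed direction under any alternative; 397 of 2983 pairs of a call and an alternative fell short of the threshold and 2586 held. Members are expressed at low counts, which limits what can be called, and limma tested only genes at 1 TPM or more in 3 libraries. Counts of called members moved by more than 1.5 times, or turned in balance, as follows. The causes were not tested. The share of all genes called under each alternative is not given here, so a moved count is not a result about the members alone.

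For KU60019 against DMSO at 35 d the count was 10 with no filter, 11 with the length trend removed and 28 without S2_715 and S13_705. After removal at 35 d, KU60019 against DMSO gave 9 with library size alone, 2 with limma on log2(TPM + 1), 8 with the trend removed and 3 with only the compared groups. For KU60019 at 35 d against 15 d the count was 0 with library size alone, with no filter and with limma on log2(TPM + 1) and on log2(TPM + 0.1), and 5 with only the compared groups. For DMSO at 35 d against 15 d DESeq2 gave 1. For KU60019 removal against treatment at 15 d, library size alone gave 7 (2 higher, 5 lower) and only the compared groups 7 (3 higher, 4 lower), so the balance reversed, and both limma fits gave 2. For DMSO removal against DMSO at 15 d, both limma fits and only the compared groups gave 2. For KU60019 removal against treatment at 35 d, DESeq2 gave 16, only the compared groups 17 and both limma fits 2. For the difference of KU60019 effects between 35 d and 15 d, DESeq2, limma on log2(TPM + 1) and only the compared groups gave 2, and limma on log2(TPM + 0.1) gave 0. On removal at 15 d, limma gave 2 and 1 with the larger and the smaller pseudocount. On removal at 35 d, no filter and the trend removed each gave 9.

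Leaving out 1 library at a time, the count ranged from 16 to 34 at 15 d, 5 to 25 at 35 d, 20 to 27 after removal at 15 d, 4 to 10 after removal at 35 d and 25 to 32 in irradiated cells. It ranged from 0 to 1 between KU60019 times, 4 to 7 and 2 to 4 on removal at 15 d from KU60019 and from DMSO, and 2 to 9 and 32 to 38 on removal at 35 d. For differences of effects the ranges were 3 to 6 on removal at 15 d and 7 to 16 on removal at 35 d.

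With the replicate number as a block, the counts were 29 at 15 d, 15 at 35 d, 25 and 6 after removal at 15 d and 35 d, 31 in irradiated cells, and 9 for KU60019 removal against treatment at 35 d. The block moved no count of calls by more than 1.5 times.

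The log2 ratio of summed levels after removal at 15 d was -0.59 for beta on TMM-scaled CPM, against -1.21 on TPM. For gamma it was -2.97 on CPM and -2.86 without Pcdhgc3, against -3.54 on TPM. After removal at 35 d the gamma ratio was -0.19 on CPM, against 0.39 on TPM. With library size alone the median log2 fold change of all genes was -0.13 after removal at 15 d (main -0.01), 0.29 after removal at 35 d (main 0.00) and -0.29 for DMSO removal at 35 d (main -0.04). It was -0.20 for KU60019 removal and -0.14 for DMSO removal against the groups before removal at 15 d, and 0.34 for the change of the KU60019 effect on removal at 35 d (main 0.02, -0.02 and 0.02).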
